A study of Mus musculus with 31 samples.

Results

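Macrophage marker genes were followed in mouse gastrocnemius, the large calf muscle: C1qa, C1qb, C1qc, Csf1r, Adgre1, Mrc1, Cd163, Ctss, Cd68 and Lyz2. They were chosen by name and not by a rule on measured values, but with earlier results of these data known. They are 10 of the 39017 gene identifiers counted in every library. All 10 passed the filter on low counts that left 14024 genes for testing. The mice either lacked MuRF1 (knockout, KO), a ubiquitin ligase of muscle encoded by Trim63, or were wild type (WT). Both sexes were used, and after weaning on chow some mice of each kind were moved at 8 weeks of age to a high-fat diet (HFD) with 45% fat from lard, while the others stayed on chow. All muscles were taken at 30 weeks, frozen and powdered whole, so that each library holds RNA of every cell type in the muscle. The groups were female KO on HFD (n = 3), female WT on HFD (n = 4), female KO on chow (n = 4), female WT on chow (n = 4), male KO on HFD (n = 3), male WT on HFD (n = 4), male KO on chow (n = 4) and male WT on chow (n = 4). The mouse strain and how Trim63 was disrupted are not stated in the labels, and each library carries its own animal number.

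Macrophages are phagocytes that reside between muscle fibres in the connective tissue, clear debris and dying cells, and take part in the repair of injured muscle. Their survival depends on signals through the receptor encoded by Csf1r, and resident cells carry scavenger receptors such as those encoded by Mrc1 and Cd163. They are also a main source of C1q, the protein that starts the classical complement pathway and is built from the chains encoded by C1qa, C1qb and C1qc. In RNA of whole muscle, fewer macrophages and less RNA of these genes per macrophage cannot be told apart.

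Promoter sequences are shown for 4 of the genes because these genes bracket the pattern of the results: the chains C1qb and C1qc had genotype differences like those of the other genes but small diet differences in females, Mrc1 was called by diet in both sexes, and Cd163 was the gene least different between genotypes. The sequences are those of RefSeq on GRCm38.p6, 250 bases before to 50 bases after the transcript start, read 5′ to 3′ on the strand of the gene, and 7 of the 10 genes had an entry. Capitals mark GAGGAA, or TTCCTC where it lies on the opposite strand, the core motif bound by PU.1, a transcription factor that macrophages need to form. The C1qb window is chr4:136886151-136886450 on the minus strand, that of C1qc chr4:136892865-136893164 on the minus strand, that of Mrc1 chr2:14229164-14229463 on the plus strand and that of Cd163 chr6:124304401-124304700 on the plus strand.
C1qb: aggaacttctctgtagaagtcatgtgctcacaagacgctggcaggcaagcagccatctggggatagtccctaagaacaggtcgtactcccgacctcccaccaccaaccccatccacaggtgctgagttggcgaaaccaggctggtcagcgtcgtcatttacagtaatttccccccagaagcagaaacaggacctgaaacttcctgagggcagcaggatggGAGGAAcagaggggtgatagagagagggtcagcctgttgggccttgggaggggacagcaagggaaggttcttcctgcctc
C1qc: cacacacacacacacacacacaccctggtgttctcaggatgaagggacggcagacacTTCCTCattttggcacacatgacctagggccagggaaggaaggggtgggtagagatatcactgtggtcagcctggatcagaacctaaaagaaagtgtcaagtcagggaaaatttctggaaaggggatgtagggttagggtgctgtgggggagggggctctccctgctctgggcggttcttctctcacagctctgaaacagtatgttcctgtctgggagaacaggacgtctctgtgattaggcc
Mrc1: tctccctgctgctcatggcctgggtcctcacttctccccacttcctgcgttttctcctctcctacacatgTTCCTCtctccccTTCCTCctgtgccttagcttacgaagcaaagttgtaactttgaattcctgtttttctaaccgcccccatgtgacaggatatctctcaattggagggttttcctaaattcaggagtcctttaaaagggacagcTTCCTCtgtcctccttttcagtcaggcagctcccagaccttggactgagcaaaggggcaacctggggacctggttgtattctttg
Cd163: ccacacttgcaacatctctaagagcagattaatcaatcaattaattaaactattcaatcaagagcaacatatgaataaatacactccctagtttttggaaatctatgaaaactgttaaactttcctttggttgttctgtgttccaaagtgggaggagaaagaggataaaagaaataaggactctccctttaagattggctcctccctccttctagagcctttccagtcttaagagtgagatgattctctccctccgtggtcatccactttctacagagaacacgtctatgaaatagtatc
The window of C1qb held the motif 1 time, that of C1qc 1 time and that of Mrc1 3 times, and that of Cd163 held none. Of the other genes with an entry, Ctss and Cd68 held it 2 times each and Lyz2 had none, so that 5 of the 7 windows held it, against 28.3% of the 32851 promoters of the same length. A match is a description of these letters and was not measured as a binding site.

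Libraries held 9342028 to 14919379 counts, so that a gene with 3 counts stands at 0.201 to 0.321 CPM (counts scaled to the library's total). Trim63 lay at 0.486 to 7.74 CPM in KO libraries and at 107 to 271 CPM in WT libraries, and 3 WT libraries were under 150 CPM. The highest KO value was that of male KO chow 2, and the next was 2.08 CPM in male KO chow 3. Ddx3y of the Y chromosome lay at 0 to 0.697 CPM in females and 34.6 to 55.7 CPM in males, so that the levels of both genes stood on the side their labels name in every grouped library. The keratin gene Krt10, a marker of skin, was high in female KO chow 1 and 3, at 20.6 and 41.7 CPM, and in female WT chow 3, at 21.5 CPM. CPM in the text are scaled by TMM, which sets the libraries to a common scale.

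By their roles the genes fall into a few groups, and their positions are given in mm10 with the GENCODE M21 annotation, each span running over all exons and introns of the gene. The complement chains are C1qa (ENSMUSG00000036887, chr4:136895917-136898803, minus strand), C1qb (ENSMUSG00000036905, chr4:136880129-136886187, minus strand) and C1qc (ENSMUSG00000036896, chr4:136889804-136893065, minus strand). They lie side by side 2.55 to 2.57 Mb from Trim63 on the same chromosome, and are set against the other 7 genes throughout. The growth factor receptor is Csf1r (ENSMUSG00000024621, chr18:61100598-61132149, plus strand), and the surface receptors are Adgre1 (ENSMUSG00000004730, chr17:57358691-57483527, plus strand), an adhesion receptor used as the classic macrophage marker in mice, Mrc1 (ENSMUSG00000026712, chr2:14229392-14332057, plus strand), the mannose receptor, and Cd163 (ENSMUSG00000008845, chr6:124304656-124330527, plus strand), the receptor for complexes of haemoglobin and haptoglobin. The lysosomal and secreted products are Ctss (ENSMUSG00000038642, chr3:95526786-95556403, plus strand), a protease that trims the invariant chain for antigen presentation, Cd68 (ENSMUSG00000018774, chr11:69664213-69666153, minus strand), a glycoprotein of late endosomes and lysosomes, and Lyz2 (ENSMUSG00000069516, chr10:117277331-117282321, minus strand), lysozyme, which neutrophils make as well.

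The macrophage genes were expressed at low to moderate levels. Per kilobase of exon, Lyz2 was the most abundant with a mean of 55.6 CPM over the 30 libraries, followed by C1qb at 13.3, C1qa at 12.6, C1qc at 6.55, Ctss at 5.96 and Csf1r at 3.48 CPM per kilobase. Cd68 at 2.70, Cd163 at 2.53, Mrc1 at 2.48 and Adgre1 at 1.32 CPM per kilobase closed the order. Reads of Lyz2 may be shared with Lyz1, whose transcript is 95.96% identical over 1262 bases and which held 10 to 212 counts against 143 to 1931 for Lyz2, so the level of Lyz2 is uncertain by that share. The Csf1r, Mrc1 and Ctss spans overlap other annotated genes, and the strand setting of the counting is not known.

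Across libraries the genes varied over different ranges, not scaled for length here. Adgre1 had the widest range, 0.102 to 11.9 CPM, with 1 count in its lowest library and 177 in its highest. Mrc1 covered 3.26 to 32.1 CPM, Lyz2 14.6 to 130 CPM and Csf1r 4.58 to 36.4 CPM. Cd163 with 6.79 to 23.5 CPM and Cd68 with 1.39 to 4.97 CPM had the smallest ratio of highest to lowest library. The library male KO chow 2 was the lowest for 8 of the 10 genes, and female WT chow 3 was the highest for 6. The C1q chains had their highest value elsewhere, in female WT HFD 3, at 21.6, 21.3 and 21.7 CPM for C1qa, C1qb and C1qc.

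**Figure D1:**
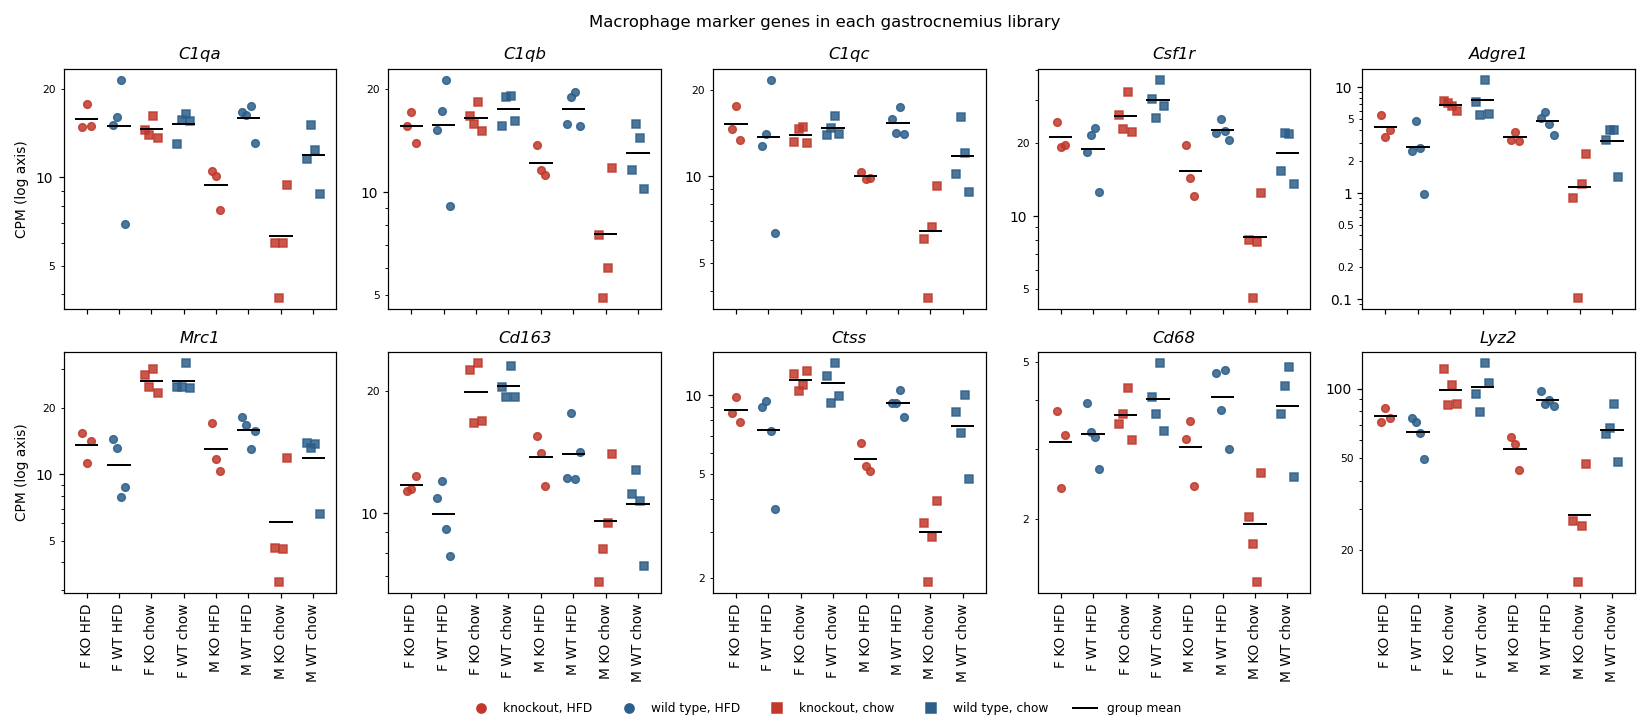
CPM of each macrophage gene (log axis) in each of the 30 libraries, by group, with the group mean as a black bar; F and M are female and male, red is knockout, blue is wild type, circles are HFD and squares are chow. Male KO chow libraries hold the lowest values of most genes, with Ctss at 1.94 to 3.95 CPM against 4.80 to 10.0 CPM in male WT chow libraries.

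As the mean log2 CPM over the 10 genes, the groups ran in this order from the bottom: male KO chow 2.42 ± 0.58 (SD, here and below n = 3 or 4), male KO HFD 3.34 ± 0.19, female WT HFD 3.44 ± 0.44, male WT chow 3.44 ± 0.37, female KO HFD 3.69 ± 0.067, male WT HFD 3.85 ± 0.11, female KO chow 4.04 ± 0.13 and female WT chow 4.11 ± 0.19. Male KO chow stood below its neighbour male KO HFD by more than the SD of either group. Of the other neighbours, female KO HFD and male WT HFD were also apart by more than the SD of either group, and so were male WT HFD and female KO chow. The remaining neighbours in this order differed by less than the larger of their SDs.

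The largest genotype difference lay in males on chow, where 8 of the 10 genes fell in knockout muscle, 3 of them C1q chains. Ctss had 3.24, 1.94, 2.86 and 3.95 CPM in male KO chow libraries, against 8.62, 7.16, 10.0 and 4.80 CPM in male WT chow libraries. Every KO value was under the lowest WT value, and the log2 fold change was -1.33 ± 0.23, adjusted p = 0.00138 (edgeR quasi-likelihood test with Benjamini-Hochberg adjustment over 14024 genes, as for every adjusted p below; ± gives the standard error). Lyz2 had 26.6, 14.6, 25.4 and 47.2 CPM in KO and 63.7, 67.6, 86.1 and 48.0 CPM in WT muscle, a log2 fold change of -1.21 ± 0.23, adjusted p = 0.00325, again without overlap. Csf1r had 8.00, 4.58, 7.80 and 12.4 CPM in KO and 15.3, 21.9, 21.7 and 13.5 CPM in WT muscle, a log2 fold change of -1.13 ± 0.22, adjusted p = 0.00394. These were the 3 genes whose groups did not overlap, and 10.3% of all tested genes had no overlap in this comparison. Of all tested genes, 6.95% were called here and 5.31% were called lower. The 8 of 10 is above that share, for genes chosen with earlier results of these data known.

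The C1q chains fell as well in male KO chow muscle. C1qa had 5.98, 3.87, 5.98 and 9.41 CPM in KO and 11.6, 15.1, 12.4 and 8.80 CPM in WT muscle, a log2 fold change of -0.91 ± 0.23, adjusted p = 0.0182. C1qb had 7.50, 4.89, 5.98 and 11.8 CPM in KO and 11.6, 15.8, 14.4 and 10.2 CPM in WT muscle, with -0.77 ± 0.21, adjusted p = 0.0227. C1qc had 6.08, 3.77, 6.68 and 9.25 CPM in KO and 10.2, 16.1, 12.0 and 8.80 CPM in WT muscle, with -0.86 ± 0.24, adjusted p = 0.0285. For each chain the library male KO chow 4 lay inside the range of the WT group and the other 3 lay below it. Their median log2 fold change was -0.86, against -1.13 for the other 7 genes and -0.96 for all 10, and the median over all tested genes was -0.023.

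Among the receptors, Mrc1 fell and Adgre1 and Cd163 did not pass the test. Mrc1 had 4.66, 3.26, 4.60 and 11.9 CPM in male KO chow and 13.9, 13.1, 13.7 and 6.64 CPM in male WT chow libraries, a log2 fold change of -0.93 ± 0.29, adjusted p = 0.0483. In each group 1 library stood apart, male KO chow 4 among the KO values and male WT chow 4 at the low end of the WT values. Adgre1 had 0.912, 0.102, 1.21 and 2.37 CPM in KO and 3.16, 3.99, 4.00 and 1.44 CPM in WT muscle, with -1.38 ± 0.44, adjusted p = 0.0525, the largest difference in size but on few counts. Cd163 had 6.79, 8.15, 9.45 and 14.0 CPM in KO and 11.2, 12.8, 10.7 and 7.44 CPM in WT muscle, with -0.12 ± 0.18, adjusted p = 0.739, and its groups overlapped over nearly their whole range. Cd68 fell, with 2.03, 1.73, 1.39 and 2.61 CPM in KO and 3.70, 4.34, 4.85 and 2.56 CPM in WT muscle and a log2 fold change of -0.98 ± 0.23, adjusted p = 0.00945.

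How many of these calls held depended on the animals in the fit. The 8 calls became 3 without male KO chow 2 or 3, 4 without male KO chow 1 or male WT chow 2 or 3, and 9 without male WT chow 4. Ctss, Lyz2 and Csf1r were called in all 30 fits that left out 1 library, while Mrc1, with its adjusted p near the threshold, was called in 7 of the 30 and in 2 of 9 other alternatives. Fitted on the 2 male chow groups alone, Ctss was the 1 gene called. All 10 fold changes stayed negative under these settings with 1 exception, Cd163, which was 0.024 without male KO chow 1.

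**Figure D2:**
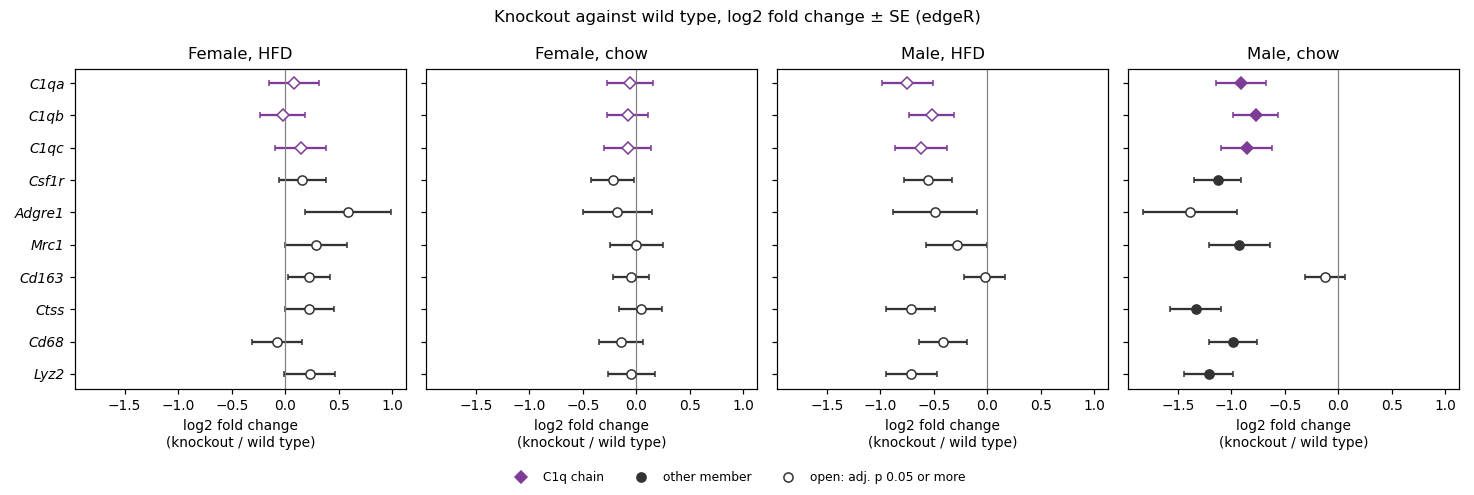
Log2 fold change of knockout over wild type with its standard error for each macrophage gene, from left to right in females on HFD, females on chow, males on HFD and males on chow; C1q chains are violet diamonds and open symbols have an adjusted p of 0.05 or more. In males on chow the values run from -1.38 to -0.12 and 8 are filled, and in the other panels none is.

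Several other lists of immune genes held members that fell in male KO chow muscle, where 5.31% of all tested genes were called lower. Of 22 core myeloid genes 11 fell and none rose, with a median log2 fold change of -1.04, among them Itgb2, an integrin chain of leukocytes, at -1.86 and Laptm5, a lysosomal protein of blood cells, at -1.19. All 7 genes of class II antigen presentation fell, H2-Aa by 1.13 and the invariant chain gene Cd74 by 1.06 on the log2 scale. Of 19 genes of resident macrophages 6 fell, such as Folr2, the folate receptor of tissue macrophages, at -1.40, and F13a1, a coagulation factor subunit, at -1.15. Among genes of inflammatory monocytes 1 of the 9 tested fell, the integrin chain Itgam at -1.20, and 4 of 12 genes of lipid-handling and repair macrophages fell, Apoe at -0.84 among them. Of 17 tested complement genes 6 fell, with C1s1, a protease that associates with C1q, at -0.98 and C3, the central component, at -1.18. Csf1, a ligand of the Csf1r receptor, fell by 0.87 and the chemokine Cxcl12 by 0.57 on the log2 scale, the 2 of 7 tested ligand genes that were called. Of 16 lysosomal genes 3 fell and 1 rose, so that most genes of this compartment, which every cell has, did not pass the test.

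Markers of other cell types moved beside them, in the same comparison with 5.31% of all tested genes called lower. All 15 fibroblast and matrix genes fell in male KO chow muscle, with a median of -1.07 and a summed level of 616 to 1730 CPM in KO against 1703 to 2551 CPM in WT libraries. Mmp2, a matrix protease, was at -1.20 and Col6a2, a collagen chain, at -1.15. Of 11 endothelial genes 7 fell, with summed levels of 219 to 359 CPM in KO and 321 to 488 CPM in WT libraries. Of 6 tendon genes 1 fell and of 6 satellite cell genes 1 fell. None was called among 4 tested neutrophil genes, 8 of dendritic cells, 5 of mast cells, 9 of adipocytes, 7 of Schwann cells, 6 of keratinocytes, 5 of red cells and 8 of muscle fibres, nor for the 1 tested gene each of T and NK cells and of B cells. The part of the connective tissue cells in the difference of the macrophage genes was not tested.

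In males on HFD none of the 10 genes was called between genotypes, where 0.264% of all tested genes were, and DESeq2 called none of the 10. Under an unadjusted p of 0.05 were 6 of the 10, beside 1386 of all 14024 tested genes. All 10 fold changes were negative, from -0.75 ± 0.24 for C1qa to -0.024 ± 0.19 for Cd163, with a median of -0.54 beside -0.0030 over all genes. Ctss had 6.59, 5.35 and 5.12 CPM in male KO HFD and 9.30, 9.34, 10.5 and 8.25 CPM in male WT HFD libraries, with -0.72 ± 0.23, adjusted p = 0.236. C1qa had 10.5, 10.1 and 7.76 CPM in KO and 16.7, 16.3, 17.5 and 13.1 CPM in WT muscle, with -0.75 ± 0.24, adjusted p = 0.231. Both genes had no overlap between the groups, as was true of 6 of the 10 genes and of 10.7% of all tested genes. The genotype difference on HFD minus that on chow in males was positive for all 10 genes, from 0.10 ± 0.26 for Cd163 to 0.89 ± 0.59 for Adgre1, but none was called by edgeR or DESeq2 and none had an unadjusted p under 0.05. Of all tested genes 0% were called in it by edgeR.

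In females no macrophage gene passed the test between genotypes. On chow the fold changes ran from -0.22 ± 0.20 for Csf1r to 0.041 ± 0.20 for Ctss, and on HFD from -0.077 ± 0.23 for Cd68 to 0.59 ± 0.40 for Adgre1. By edgeR none was called, and none had an unadjusted p under 0.05 or a call from DESeq2. At large 0.0927% of all tested genes were called on chow and 0.0713% on HFD. Ctss had 12.0, 10.4, 11.0 and 12.4 CPM in female KO chow and 11.8, 9.31, 13.3 and 9.95 CPM in female WT chow libraries, with overlapping ranges. On HFD it had 8.52, 9.85 and 7.93 CPM in KO and 9.04, 9.51, 7.29 and 3.67 CPM in WT libraries, and the lowest of these values was female WT HFD 4. For C1qa the values were 14.6, 14.0, 16.2 and 13.6 CPM in female KO chow and 13.0, 15.7, 16.5 and 15.6 CPM in female WT chow libraries, and 14.9, 17.8 and 15.0 CPM in female KO HFD and 15.1, 16.1, 21.6 and 6.95 CPM in female WT HFD libraries. In the WT group on HFD the lowest and highest C1qa values of all females stood side by side. The genotypes overlapped for all 10 genes on either diet, where 4.36% of all tested genes on chow and 5.59% on HFD did not overlap, and a miss of the threshold with 3 or 4 animals does not show that the genotypes were equal.

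The genotype difference in females minus that in males, averaged over diets, was positive for all 10 genes, with a median of 0.79 on the log2 scale beside 0.0115 over all genes. Ctss was called, at 1.16 ± 0.22, adjusted p = 0.0425, in a comparison that called 0.0285% of all tested genes. Lyz2 at 1.05 ± 0.23, adjusted p = 0.0602, C1qa at 0.84 ± 0.23, adjusted p = 0.136 and Csf1r at 0.81 ± 0.22, adjusted p = 0.136 did not pass. An unadjusted p under 0.05 was found for 9 of the 10 genes, beside 1428 of all tested genes. The call of Ctss held in 12 of 30 fits that left out 1 library, and the number of genes called in these fits ran from 0 in 18 of them to 8 without male KO chow 4. It was lost with the GC and length offset, when the 3 libraries with high Krt10 or the WT libraries low in Trim63 were left out, and with libraries grouped by their own titles. DESeq2 called 4. On chow alone the same difference was 1.37 ± 0.31, adjusted p = 0.0727 for Ctss and 1.17 ± 0.31, adjusted p = 0.122 for Lyz2. No macrophage gene was called there by edgeR, where 0.0428% of all tested genes were, and 2 were called by DESeq2. Under an unadjusted p of 0.05 were 9 macrophage genes, beside 1776 of all tested genes. For the genotype difference on HFD minus that on chow, both sexes averaged, no macrophage gene was called by edgeR or DESeq2. Of all tested genes 0.107% were called by edgeR and 1178 were under an unadjusted p of 0.05, as were 2 macrophage genes.

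Averaged over both sexes and diets, 6 genes fell in knockout muscle: Ctss at -0.45 ± 0.11, adjusted p = 0.0192, Csf1r at -0.44 ± 0.11, adjusted p = 0.0200, Lyz2 at -0.43 ± 0.12, adjusted p = 0.0296, C1qa at -0.41 ± 0.11, adjusted p = 0.0364, Cd68 at -0.41 ± 0.11, adjusted p = 0.0321 and C1qb at -0.35 ± 0.10, adjusted p = 0.0457. C1qc at -0.35 ± 0.12, adjusted p = 0.0814 and Adgre1 at -0.37 ± 0.20, adjusted p = 0.300 did not pass, and Cd163 was at 0.0061 ± 0.093, adjusted p = 0.987. Of all tested genes 4.39% were called and 2.83% were called lower. The male chow stratum holds the largest of the 4 differences that this average is made of. The count was 2 without male WT chow 3, male KO HFD 3 or female WT chow 3, it was 3 without male WT chow 2, male KO chow 2 or 3, male WT HFD 1, female KO chow 1 or 4, female WT HFD 1 or female KO HFD 1 or 3, each left out singly, and it was 1 when the libraries with high Krt10 were left out, 1 with no filter on low counts, 3 with the GC and length offset and 0 with libraries grouped by their own titles. Ctss and Csf1r were called in all 30 fits that left out 1 library. In the same comparison 7 of 22 core myeloid genes, 5 of 7 antigen presentation genes and 10 of 15 fibroblast and matrix genes fell.

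Averaged over sex and diet, the C1q chains and the other 7 genes differed by similar amounts between genotypes. In each library the mean log2 CPM of the chains minus that of the others was taken. It was 0.40 ± 0.25 in female KO HFD and 0.52 ± 0.44 in female WT HFD, -0.17 ± 0.10 in female KO chow and -0.17 ± 0.22 in female WT chow, 0.092 ± 0.091 in male KO HFD and 0.26 ± 0.12 in male WT HFD, and 0.42 ± 0.11 in male KO chow and 0.23 ± 0.23 in male WT chow (SD). The average difference of KO minus WT over the 4 strata was -0.025 and ran from -0.06 to 0.029 when 1 library was left out. The SD between single libraries of a group was 0.225, which is not the error of this average, and the average was not tested. The stratum values went both ways, higher in KO in males on chow and lower in KO in males on HFD and females on HFD. By diet, the value was higher on HFD than on chow in both female genotypes and lower on HFD than on chow in male KO muscle, without overlap of the libraries in each case. Among themselves the chains kept close proportions of the C1q counts, with C1qa at 26.9% to 35.4%, C1qb at 32.1% to 40.7% and C1qc at 28.3% to 35.8% over the 30 libraries.

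**Figure D3:**
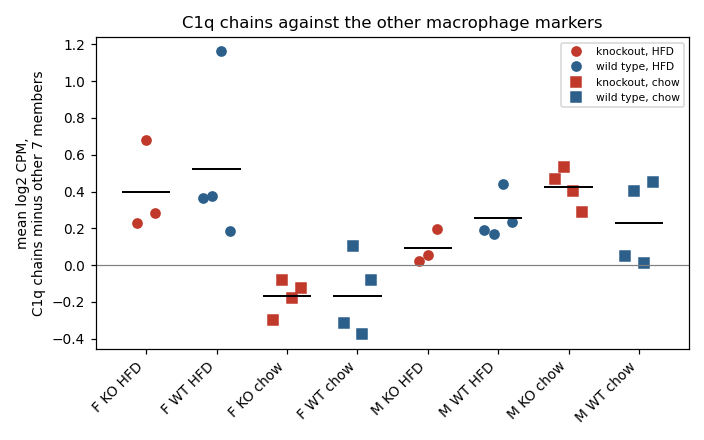
Mean log2 CPM of the 3 C1q chains minus that of the other 7 macrophage genes in each library, by group, with the group mean as a bar; colours and shapes mark genotype and diet. Knockout and wild type lie at -0.17 and -0.17 in females on chow, both below the other groups, and female WT HFD 3 is the highest library at 1.16.

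With the high-fat diet all 10 genes had positive differences in males, and the genes called in females were lower. In male KO muscle 4 genes rose on HFD, in a comparison that called 5.83% of all tested genes and 4.01% in the upward direction. Lyz2 had 61.7, 57.7 and 44.4 CPM in male KO HFD and 26.6, 14.6, 25.4 and 47.2 CPM in male KO chow libraries, with 0.93 ± 0.24, adjusted p = 0.0278. Male KO chow 4 lay among the HFD values and the other 3 chow libraries below them. Mrc1 had 17.1, 11.8 and 10.3 CPM on HFD and 4.66, 3.26, 4.60 and 11.9 CPM on chow, with 1.06 ± 0.30, adjusted p = 0.0396. Ctss at 0.91 ± 0.25, adjusted p = 0.0357 and Csf1r at 0.88 ± 0.24, adjusted p = 0.0298 rose too. The C1q chains were at 0.57 ± 0.25, 0.68 ± 0.22 and 0.62 ± 0.26 for C1qa, C1qb and C1qc and did not pass, and of all 10 genes 3 had no overlap between the diets, where 28.1% of all genes had none. The 4 calls were lost without any 1 of male KO chow 1, 2 or 3 or male KO HFD 1 or 2, became 8 without male KO chow 4, and became 1 in a fit on these 2 groups alone or without the filter on low counts. With the GC and length offset described below, 7 genes were called higher, the C1q chains included, where 8.07% of all genes were called.

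In male WT muscle no macrophage gene was called by diet, in DESeq2 either, while 0.349% of all tested genes were. Under an unadjusted p of 0.05 were 2 of the 10, beside 1491 of all tested genes. The values of the 10 genes were all positive, from 0.072 ± 0.21 for Cd68 to 0.59 ± 0.36 for Adgre1. Ctss had 9.30, 9.34, 10.5 and 8.25 CPM in male WT HFD and 8.62, 7.16, 10.0 and 4.80 CPM in male WT chow libraries, with 0.29 ± 0.21, adjusted p = 0.670. Its groups overlapped, as did those of all 10 genes, beside 5.89% of all tested genes that did not. The difference of the diet differences between the male genotypes is the comparison given above, in which no gene was called.

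In female WT muscle 6 genes fell on HFD, and none of them was a C1q chain. Mrc1 had 14.5, 13.2, 7.93 and 8.73 CPM in female WT HFD and 24.9, 24.9, 32.1 and 24.6 CPM in female WT chow libraries, with -1.25 ± 0.26, adjusted p = 0.00202. Cd163 had 10.9, 12.0, 9.13 and 7.84 CPM on HFD and 20.5, 19.4, 23.1 and 19.3 CPM on chow, with -1.03 ± 0.18, adjusted p = 0.000365. Adgre1 had 2.52, 4.82, 2.68 and 0.992 CPM on HFD and 7.33, 5.54, 11.9 and 5.64 CPM on chow, with -1.42 ± 0.35, adjusted p = 0.00557. In all of these genes every HFD library lay below every chow library, as for 5 of the 10 genes and 23.1% of all tested genes. Csf1r at -0.67 ± 0.20, adjusted p = 0.0167, Lyz2 at -0.65 ± 0.22, adjusted p = 0.0311 and Ctss at -0.57 ± 0.20, adjusted p = 0.0403 fell less, and Cd68 at -0.29 ± 0.21, adjusted p = 0.318 did not pass. C1qa had 15.1, 16.1, 21.6 and 6.95 CPM on HFD and 13.0, 15.7, 16.5 and 15.6 CPM on chow, with -0.019 ± 0.21, adjusted p = 0.958, and the HFD values surrounded the chow values. This comparison called 25.4% of all tested genes and 12.5% in the downward direction. The 6 calls became 3 without female WT chow 3, without female WT HFD 4 and when either the WT libraries low in Trim63 or those with high Krt10 were left out, and 0 with libraries grouped by their own titles.

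In female KO muscle 2 genes fell on HFD. Mrc1 had 15.5, 11.2 and 14.2 CPM in female KO HFD and 28.4, 24.9, 30.0 and 23.4 CPM in female KO chow libraries, with -0.97 ± 0.28, adjusted p = 0.0200. Cd163 had 11.3, 11.5 and 12.3 CPM on HFD and 22.5, 16.7, 23.5 and 16.9 CPM on chow, with -0.76 ± 0.19, adjusted p = 0.00843. Neither gene had any overlap between the diets, nor had 5 of the 10 genes in all, beside 33.3% of all tested genes. At large 19.2% of all genes were called and 8.79% lower, and the 2 of 10 is close to the first of these shares. The C1q chains were at 0.12 ± 0.23, -0.086 ± 0.21 and 0.12 ± 0.24 for C1qa, C1qb and C1qc. Both calls were lost without female KO HFD 2 and without the libraries high in Krt10, 2 of which are female KO chow libraries. With the GC and length offset Cd163 was the 1 gene called, where 11.6% of all genes were, and Mrc1 was at -0.71 ± 0.24, adjusted p = 0.0536.

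**Figure D4:**
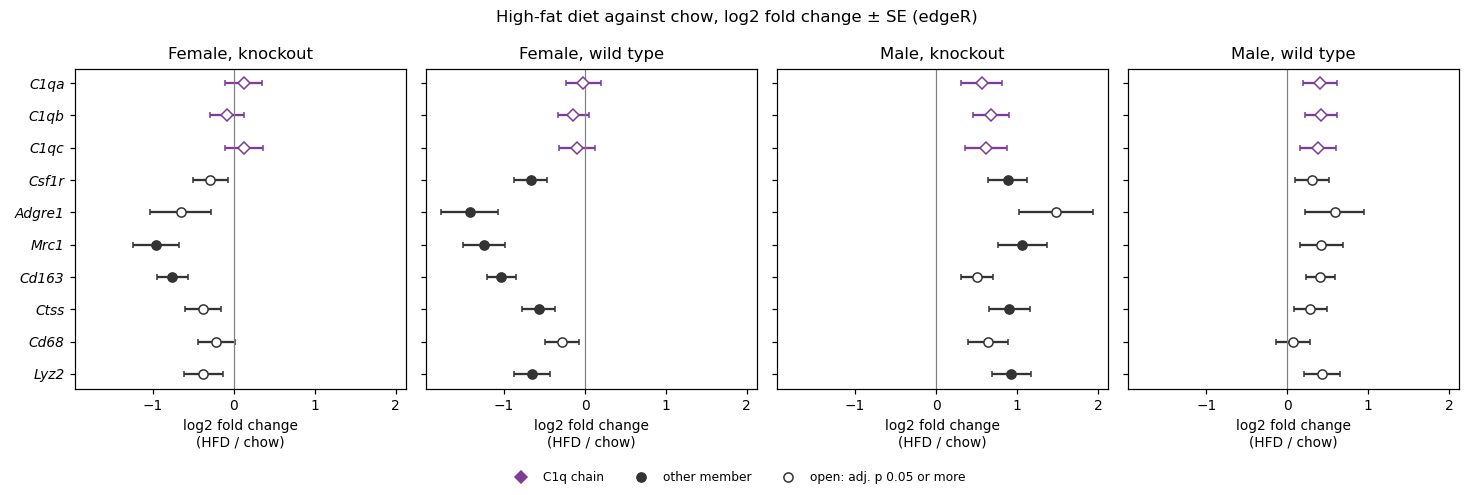
Log2 fold change of HFD over chow with its standard error for each macrophage gene, from left to right in female KO, female WT, male KO and male WT muscle; C1q chains are violet diamonds and open symbols have an adjusted p of 0.05 or more. In female WT muscle Adgre1, Mrc1 and Cd163 lie at -1.42, -1.25 and -1.03 while the C1q chains lie between -0.15 and -0.02, and in both male panels all values are positive.

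The base composition of the genes moved with the diet difference in females. Among 3480 genes with under 45% GC in their longest transcript the median log2 fold change by diet in female WT muscle was -0.277, against 0.321 among 3113 genes with over 55%. The C1q chains have 57.4% to 59.5% GC, the highest of the 10 genes, and Mrc1 has 43.4%, the lowest. With an offset for the trend of each library with GC content and exon length, chosen after seeing the data, C1qa was at -0.51 ± 0.22, C1qb at -0.57 ± 0.20 and C1qc at -0.51 ± 0.19 in female WT muscle, closer to Ctss at -0.50 ± 0.22, Cd68 at -0.52 ± 0.23 and Lyz2 at -0.68 ± 0.24. Mrc1 at -0.97 ± 0.22, Cd163 at -0.92 ± 0.16, Adgre1 at -1.34 ± 0.35 and Csf1r at -0.84 ± 0.18 remained the largest differences and were the 4 genes called, where 10.4% of all genes were. With the offset the C1q chains of female WT muscle had adjusted p-values of 0.137, 0.0700 and 0.0918 for C1qa, C1qb and C1qc. In male chow muscle the genes with low and high GC had medians of -0.059 and 0.012 by genotype, and the same 8 of 10 macrophage genes were called with the offset, where 12.8% of all genes were. By genotype in the other strata these medians were 0.096 and -0.103 in males on HFD, 0.104 and -0.117 in females on HFD and 0.045 and -0.036 in females on chow. The part of this trend in the genotype differences of the C1q chains on HFD was not tested.

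The sexes differed in their diet difference for most of the genes. The diet difference in females minus that in males, genotypes averaged, was negative for all 10 and called for 8, led by Adgre1 at -2.08 ± 0.39, adjusted p = 0.000152, Mrc1 at -1.85 ± 0.28, adjusted p = 1.65e-05 and Cd163 at -1.36 ± 0.19, adjusted p = 3.83e-06. Lyz2 at -1.20 ± 0.23, Csf1r at -1.08 ± 0.22, Ctss at -1.07 ± 0.22, C1qb at -0.66 ± 0.20 and Cd68 at -0.61 ± 0.22 were called too, and C1qa at -0.43 ± 0.23, adjusted p = 0.119 and C1qc at -0.49 ± 0.24, adjusted p = 0.0911 were not. This comparison called 45.2% of all tested genes and 23.6% in the negative direction, so a call in it is common. With the GC and length offset all 10 were called, where 37.6% of all genes were, and C1qa was at -1.05 ± 0.24 and C1qc at -0.94 ± 0.21. Of the other lists, 14 of 22 core myeloid genes, 14 of 19 genes of resident macrophages and 13 of 17 complement genes were called negative, with Lyve1, a hyaluronan receptor of resident macrophages, at -2.21. None of the 7 antigen presentation genes was. Among fibroblast and matrix genes 10 of 15 were called negative. Averaged over sex and genotype, none of the 10 genes was called by diet with edgeR or DESeq2, where 0.827% of all tested genes were called by edgeR. Under an unadjusted p of 0.05 were 4, C1qa at 0.27 ± 0.11, C1qb at 0.22 ± 0.10, C1qc at 0.25 ± 0.12 and Cd163 at -0.22 ± 0.093. So were 2705 of all tested genes.

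Between the sexes, 9 of the 10 genes were higher in females, averaged over genotype and diet. Ctss was at 0.69 ± 0.11, adjusted p = 1.71e-05 and Csf1r at 0.65 ± 0.11, adjusted p = 3.69e-05, as log2 of female over male. Mrc1 at 0.70 ± 0.14, Lyz2 at 0.61 ± 0.12, Adgre1 at 0.84 ± 0.20, C1qa at 0.55 ± 0.11, C1qc at 0.46 ± 0.12, C1qb at 0.44 ± 0.10 and Cd163 at 0.32 ± 0.093 were called as well, and Cd68 at 0.18 ± 0.11, adjusted p = 0.237 was not. Of all tested genes 30.8% were called and 17.4% were called higher in females. The 9 calls were made in every fit that left out 1 library. On chow Mrc1 had group means of 26.7 ± 3.04 CPM in female KO and 6.11 ± 3.94 CPM in male KO muscle, and 26.6 ± 3.69 CPM in female WT and 11.9 ± 3.49 CPM in male WT muscle (SD, n = 4 each). On HFD it had 13.6 ± 2.19 CPM in female KO and 13.1 ± 3.58 CPM in male KO muscle (SD, n = 3 each), and 11.1 ± 3.24 CPM in female WT and 15.9 ± 2.19 CPM in male WT muscle (SD, n = 4 each), so that on HFD the order of the sexes in WT muscle was the other way round. In WT muscle on HFD the group means of all 10 genes were lower in females than in males. Lyz2 had 65.0 ± 11.2 CPM in females and 89.3 ± 6.15 CPM in males there (SD). For C1qa the means were closer, at 14.9 ± 6.04 and 15.9 ± 1.95 CPM (SD). The sexes were not tested within this stratum. On average over genotype and diet, 17 of 22 core myeloid genes, all 7 antigen presentation genes and all 15 fibroblast and matrix genes were also higher in females. The median was 0.71 for the fibroblast list against 0.58 for the macrophage genes.

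The genes tracked one another over the 30 libraries, which share the same groups and depth range. Pearson's r of log2 CPM ran from 0.537 to 0.976 over the 45 pairs, with a median of 0.859, and from 0.417 to 0.947 with a median of 0.723 once each group's mean was taken out. The C1q chains were the closest, with 0.902 to 0.947 within groups, and C1qc with Cd68 the most distant at 0.417. Against the mean of the other 9 genes, each standardised first, Csf1r had the highest r, 0.977, and Cd163 the lowest, 0.724. These values describe the libraries and carry no test.

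The same pattern ran through genes of the connective tissue. The 10 tested genes outside the list most like the mean of the macrophage genes were C1ra (r = 0.977), Pcsk6 (0.968), Tgfbi (0.967), Serping1 (0.965), Gsn (0.963), Eef1a1 (0.959), Ntn1 (0.959), Serpinf1 (0.959), Fstl1 (0.959) and Scara5 (0.958), over 30 libraries. C1ra encodes a protease of the C1 complex, Serping1 its inhibitor and Tgfbi and Fstl1 secreted matrix proteins. For these genes and for whole lists, the means were taken over log2 CPM standardised gene by gene. Over whole lists r was 0.979 for the core myeloid genes, 0.976 for complement, 0.968 for genes of resident macrophages and 0.967 for fibroblast and matrix genes. Within groups it was 0.961, 0.964, 0.93 and 0.943 for the same lists in that order. For muscle fibre genes r over the 30 libraries was -0.664. The mean log2 CPM of the macrophage genes minus that of the 15 fibroblast and matrix genes was -2.99 ± 0.12 in female KO HFD and -3.18 ± 0.092 in female WT HFD, -2.97 ± 0.085 in female KO chow and -2.99 ± 0.10 in female WT chow, -2.63 ± 0.12 in male KO HFD and -2.86 ± 0.10 in male WT HFD, and -2.78 ± 0.091 in male KO chow and -2.94 ± 0.20 in male WT chow (SD). On HFD the KO value was the higher by more than the SD of both groups, in females and in males, and on chow the genotypes were within the SD of the WT group in both sexes.

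**Figure D5:**
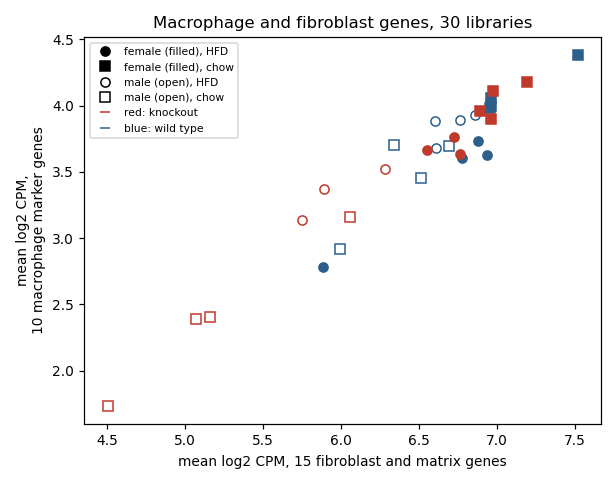
Mean log2 CPM of the 10 macrophage genes (vertical) against that of 15 fibroblast and matrix genes (horizontal), 1 symbol per library; females are filled and males open, circles are HFD and squares chow, red is knockout and blue wild type. Both means rise together over the 30 libraries, with male KO chow libraries at the lower left and female chow libraries at the upper right. The groups are offset from one another, with macrophage minus fibroblast means from -3.18 in female WT HFD to -2.63 in male KO HFD. With each gene standardised before averaging, r between the lists was 0.967.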

How the data were processed

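Stranded libraries were made from polyA RNA (integrity number over 8) of whole gastrocnemius, per the labels' protocols. The authors deposited raw counts of reads per gene, 1 table per library. The build mm10 and the tools featureCounts and bcl2fastq are named per the submitters' processing notes. Aligner, annotation release and strand setting: not given in the sources used here. In 19 records the animal numbers of title and description differ, so a library took the group of the title that carries its described animal number. This put 30 of 31 libraries in 8 groups, 4 of them in another group than their own title names, and 1 library whose animal is in no title entered no comparison. Of 42 pairs within groups 0 were identical.

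Counts were fitted with edgeR 4.0.16 in R 4.3.3 (quasi-likelihood, robust, TMM, filterByExpr with a minimum count of 10), with 1 coefficient per group and 16 contrasts, adjusted by Benjamini and Hochberg over 14024 genes at 0.05. The variation between animals of a group was 14.2% as 1 value shared by all tested genes. For the macrophage genes singly, the SD within groups ran from 0.273 for Cd163 to 0.696 for Adgre1 in log2 CPM. CPM were computed with TMM factors of 0.806 to 1.14, and log2 CPM with a prior count of 2. Symbols and positions were found for 37693 identifiers. Intervals between libraries reflect animals, and a count of 3 is the floor for counting error only. On data simulated for genotype in male chow (13791 genes) 52% of 1.5-fold and 85% of 2-fold changes were called, with 7 false calls, and for the genotype average (13807 genes) 90% and 98%, with 8. The changed genes were drawn from those with higher mean counts. Counts were simulated for each gene separately, so genes that move together across libraries were not covered.

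Named genes are the 10 macrophage genes, label checks, up to 4 genes of smallest p of each other list and the 10 genes most alike, not all of which are printed. The members and the 23 lists with 255 genes were chosen with earlier results of these data known. Alternatives were DESeq2 1.42.0, RLE scaling, no filter, grouping by titles, leaving out libraries, fits on the compared groups alone, the replicate number as a block, another prior count and, chosen after seeing the data, a GC and length offset.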

Additional observations from a re-analysis of the deposited data

Results flagged for a closer look

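In groups of 4 animals, 2 of 66 sets of values, each of a macrophage gene or of the C1q chains minus the other genes, held a library far from the others, and chance marks about 1 in 20. Mrc1 was at 32.14 CPM in female WT chow 3, whose gap to the next library was 0.951 of the range of the group, and at 6.636 CPM in male WT chow 4, with a gap of 0.921 of the range.

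The genotype difference of Ctss, the cathepsin of antigen presentation, differed between females and males, by 1.1585 on the log2 scale (females minus males). The comparison called 0.0285% of all tested genes, and the call of Ctss held in 12 of 30 fits that left out 1 library.

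The diet difference (HFD minus chow) differed between females and males for 8 genes, by -2.0763 for Adgre1, -1.8511 for Mrc1, -1.356 for Cd163, -1.1951 for Lyz2, -1.0781 for Csf1r, -1.0742 for Ctss, -0.6643 for C1qb and -0.6089 for Cd68 on the log2 scale, in a comparison that called 45.2% of all tested genes.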

How the results depend on the processing

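Every call of a macrophage gene kept its direction under the alternatives run, and reversed values were all uncalled. DESeq2 called 4 genes for genotype by sex and 2 for genotype by sex on chow, where it called 97 and 110 of all tested genes. Without a filter on low counts 1 was called for the genotype average and 1 for diet in male KO. Grouped by their own titles, 31 libraries gave 0 for the genotype average, 0 for genotype by sex and 0 for diet in female WT. Without the 3 WT libraries under 150 CPM of Trim63 there were 0 for genotype by sex and 3 for diet in female WT, and without the 3 libraries highest in Krt10 there were 1 for the genotype average, 0 for genotype by sex, 3 for diet in female WT and 0 for diet in female KO. Fits on the compared groups alone called 1 for genotype in male chow, 2 for genotype in male HFD and 1 for diet in male KO. The GC and length offset gave 3 for the genotype average, 0 for genotype by sex, 7 for diet in male KO and 1 for diet in female KO. The cause of these shifts was not tested. Leaving out 1 library gave 2 to 8 for the genotype average, 3 to 9 for genotype in male chow, 0 to 8 for genotype by sex, 0 to 5 for genotype by sex on chow, 0 to 8 for diet in male KO, 3 to 6 for diet in female WT, 0 to 2 for diet in female KO, 9 for sex and 7 to 10 for sex by diet.

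Cd163 for the genotype average turned to -0.0146 by title, -0.0115 without the WT libraries low in Trim63, -0.0364 without the libraries high in Krt10 and -0.0001 with the replicate block, and by title to 0.0933 in male HFD and -0.0287 for genotype by sex. By diet in female WT, C1qa, C1qb and C1qc turned to 0.3330, 0.0939 and 0.1732 by title, C1qa and C1qc to 0.1424 and 0.1046 without the WT libraries low in Trim63, and C1qa to 0.0283 without those high in Krt10. By diet in female KO, C1qa and C1qc turned to -0.1162 and -0.1021 by title and -0.3508 and -0.2295 with the offset, and C1qb to 0.0122 without the libraries high in Krt10. With 1 library left out Cd163 ran from -0.0570 to 0.0436 for the genotype average, -0.3601 to 0.0237 in male chow and -0.1106 to 0.0991 in male HFD, and by diet in female WT C1qa ran from -0.2314 to 0.2128, C1qb from -0.3121 to 0.0404 and C1qc from -0.3891 to 0.1304.

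Whether replicate numbers pair the libraries was not tested. Over 99 pairs of libraries with the same number the correlation of deviations from group means ran from -0.318 to 0.457. Its median was 0.026, against -0.006 over 294 pairs with other numbers, and 33 of the 99 pairs were over 0.1. Of 30 libraries, 13 correlated best with a library of their own number. A replicate block moved the count for diet in male KO to 1 and for genotype in male chow to 7, and the other counts stayed. Over all tested genes, the 974 called for genotype in male chow became 183 to 1598 with 1 library left out, 279 in the fit on these groups alone and 1802 with the offset. The 615 of the genotype average became 390 to 1203 with 1 library left out and 128 to 1002 under the other settings, the 818 of diet in male KO 106 to 1384 and 478 to 2295, the 3558 of diet in female WT 1829 to 3892 and 5 to 3844, and the 2688 of diet in female KO 270 to 3123 and 106 to 3855. Other comparisons by genotype, and diet on average or in male WT, called 0 to 116 genes, up to 373 with 1 library left out and up to 361 under the other settings. At 1 to 177 counts, Adgre1 is the gene that depth limits most.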

Other observations

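The library of the animal whose number is in no title held the macrophage genes within the range of the grouped libraries. Scaled by its total, C1qa was at 13.6, C1qb was at 16.5, C1qc was at 12.6, Csf1r was at 20.2, Adgre1 was at 3.82, Mrc1 was at 14.8, Cd163 was at 14.3, Ctss was at 8.87, Cd68 was at 2.67 and Lyz2 was at 72.4 CPM, and Trim63 was at 107.1 CPM.

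Genes of T and NK cells were at low levels, with the 12 genes summed at 0.102 CPM in the lowest and 3.17 CPM in the highest of the 30 libraries. Neutrophil genes reached 107 CPM in female KO chow 1 and 100.4 CPM in female WT chow 4, and were under 10 CPM in every other library. Lyz2, which neutrophils also make, was at 121 CPM in female KO chow 1 and 106 CPM in female WT chow 4, and the part of neutrophils in it was not tested. Mast cell genes were summed at 28.4 to 59.9 CPM in female KO chow and 11.1 to 17.0 CPM in male KO chow libraries. All 5 tested mast cell genes were higher in females, averaged over genotype and diet, with Cpa3, a mast cell protease, at 1.24 on the log2 scale. Of all tested genes 17.4% were called higher in females.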
